A study of Mus musculus with 12 samples.

Results

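The genes described here encode the ISG15 conjugation system, and 6 mouse genes were listed for it: Isg15, Usp18, Uba7, Ube2l6, Herc6 and Trim25. They were chosen by pathway membership and from their measured values in these same libraries, so their differences between groups are a description and carry no p-value. The confidence intervals and limma calls given for them show the size of a difference beside the spread between dishes, and are not a test of the genes. Of the 6 genes, 5 had a row among the 12591 genes of the deposited table. Usp18 had no row and its expression was not analysed here.

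ISG15 is a small ubiquitin-like protein that is attached to lysines of other proteins by an enzyme cascade, in parallel to ubiquitin. UBA7 (the E1) activates it, UBE2L6 (the E2) carries it, and HERC6, the main mouse ISG15 ligase, or TRIM25 (E3 enzymes) direct it to targets, while USP18 removes it again and also dampens signalling from the type I interferon receptor. The genes of the cascade are known as interferon-stimulated genes, which interferon-activated transcription factors switch on through a promoter element called the ISRE.

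RNA was sequenced from embryonic fibroblasts of C57 PER2::LUC mice, which carry luciferase fused to the clock protein PER2. Confluent cultures received control medium (CTL), 10 μM DZ (Deazaneplanocin A, an inhibitor of S-adenosylhomocysteine hydrolase), 1 mM adenine or 1 mM SAM (S-adenosylmethionine, the methyl donor of the cell) for 24 h. All dishes, CTL included, contained 3.3 mM HCl, and there were 3 replicate dishes per group, 12 libraries in all. The paper describes its PER2::LUC fibroblasts as an immortalized line from heterozygous knock-in animals, and speaks of replicate dishes. Nothing in the labels says whether the dishes were independent experiments on separate cell preparations, so the spread between dishes may be technical.

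Each library held between 45649534 and 56789090 reads on the listed genes, as recovered from the deposited values. Of 11 fibroblast markers, 9 had rows (Lum and Dcn had none), and their summed level was 23723 to 24208 CPM (a gene's reads relative to its library, normalised by the authors) in CTL, 30296 to 30932 in DZ, 27296 to 29778 in Adenine and 19266 to 20663 in SAM. The low SAM sum came from Fn1, the most abundant of them, which fell by 1.58 on the log2 scale, while the other markers with rows rose in SAM. None of the 5 endothelial and 5 epithelial markers had a row. Of 13 leukocyte markers, only Cd68 and Cd74 had rows, and Ptprc, Adgre1 and Csf1r were among those without one. The summed level of Cd68 and Cd74 was 106 to 111 CPM in CTL, 86.7 to 96.3 in DZ, 136 to 153 in Adenine and 182 to 199.9 in SAM. On the log2 scale, Cd68 alone differed from CTL by -0.11 in DZ, 1.73 in Adenine and 2.28 in SAM. Cd74 differed by -0.24, 0.34 and 0.73 in the same order. The part of leukocyte RNA in the differences was not tested. In such bulk RNA, a change in the number of expressing cells and a change in RNA per cell cannot be told apart.

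The first 100 bases upstream of the annotated start are shown for 4 genes, because they differ in matches to the letters of the ISRE. Capitals mark matches to the ISRE letters GAAANNGAAA on either strand (N is any base). The sequences were read from GRCm39 at the start of the GENCODE vM39 canonical transcript and run 5′ to 3′ on the strand of the gene. Isg15 lies on the minus strand (chr4:156285304-156285403), and Usp18 (chr6:121222757-121222856), Herc6 (chr6:57557832-57557931) and Trim25 (chr11:88890102-88890201) on the plus strand.
Isg15: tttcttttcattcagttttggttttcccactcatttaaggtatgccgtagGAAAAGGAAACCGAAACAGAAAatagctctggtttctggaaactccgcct
Usp18: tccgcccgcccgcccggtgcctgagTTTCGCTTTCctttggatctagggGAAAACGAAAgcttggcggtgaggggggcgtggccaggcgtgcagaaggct
Herc6: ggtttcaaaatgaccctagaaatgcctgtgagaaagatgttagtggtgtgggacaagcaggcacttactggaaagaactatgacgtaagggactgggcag
Trim25: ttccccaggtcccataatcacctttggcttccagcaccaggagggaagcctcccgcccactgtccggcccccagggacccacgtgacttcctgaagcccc

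The Isg15 run of capitals holds 3 overlapping matches, GAAAAGGAAA at 50 to 41 bases before the start, GAAACCGAAA at 44 to 35 and GAAACAGAAA at 38 to 29. Usp18 held 2 separate matches, one of them on the opposite strand, at 75 to 66 and 51 to 42 bases before the start. In a window of 250 bases before to 50 after the start, Isg15 was the 1 gene with a match among the 5 genes with a row. Uba7, Ube2l6, Herc6 and Trim25 had no match to these letters in that window. This says nothing about sequence outside it, or about elements inside it that are spelled differently. For Ube2l6 the canonical start lies inside the annotated gene, which begins at chr2:84628630. The 100 bases before that canonical start are chr2:84629072-84629171, so the 5′ end of the gene was not searched. For comparison, 442 of 12574 genes of the table with a promoter (3.52%) held the letters, as did 16 of 33 other interferon-stimulated genes (48.5%). With the 50 bases after the start left out, these shares were 3.07% and 24.2%. The letters TTCNNNGAA of the GAS element, another interferon-response element, were found in no member with a row. They were found in 7.33% of all promoters and in 18.2% of those of the other interferon-stimulated genes. With only 5 members, nothing is read from this.

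**Figure D1:**
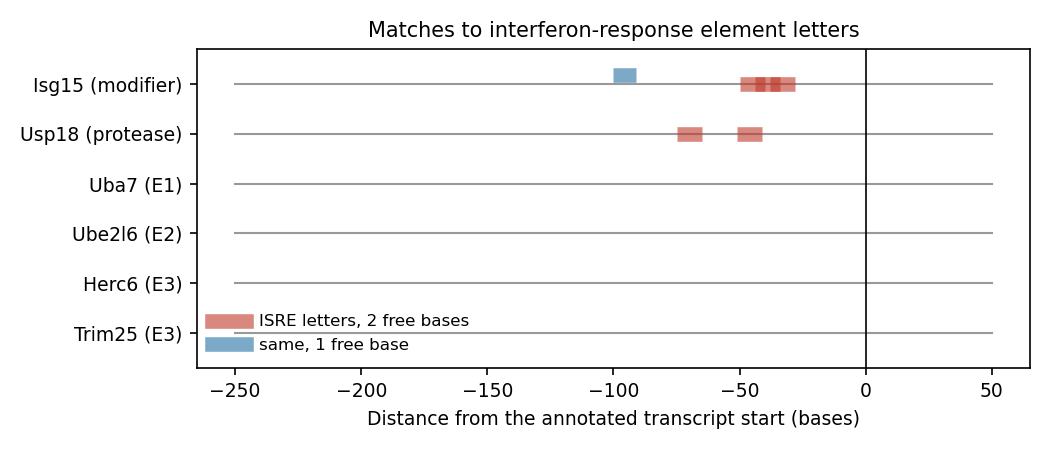
Positions of the letters GAAANNGAAA (red) and of the same letters with 1 free base (blue) on either strand, in bases from the annotated transcript start, for the 6 genes; the grey line is the searched window, 250 bases before to 50 after the start. Matches appear only for Isg15 (3 red overlapping, 1 blue) and Usp18 (2 red).

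The modifier itself spanned the widest range of the genes. Isg15 (ENSMUSG00000035692, GRCm39 chr4:156283883-156285303, minus strand, 2 exons) had log2 CPM levels of 2.99, 3.04 and 3.14 in the CTL dishes and of 6.67, 6.72 and 6.59 in the DZ dishes. In Adenine the levels were 1.61, 1.89 and 1.80, and in SAM they were 2.24, 2.46 and 2.60. The 4 groups did not overlap: every DZ dish lay above every CTL dish, SAM lay below CTL, and Adenine was lowest. These levels rest on 349 to 401 reads per library in CTL, 4563 to 5204 in DZ, 164 to 204 in Adenine and 279 to 310 in SAM.

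The group means of Isg15 were 3.06 ± 0.078 in CTL, 6.66 ± 0.064 in DZ, 1.77 ± 0.14 in Adenine and 2.43 ± 0.18 in SAM (log2 CPM, SD, n = 3). DZ exceeded CTL by 3.61 on the log2 scale (95% confidence interval 3.41 to 3.81), a 12.2-fold higher level. The difference from CTL was -1.29 (-1.49 to -1.09) in Adenine and -0.62 (-0.82 to -0.42) in SAM. Isg15 therefore went in opposite directions under DZ and under both metabolites.

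**Figure D2:**
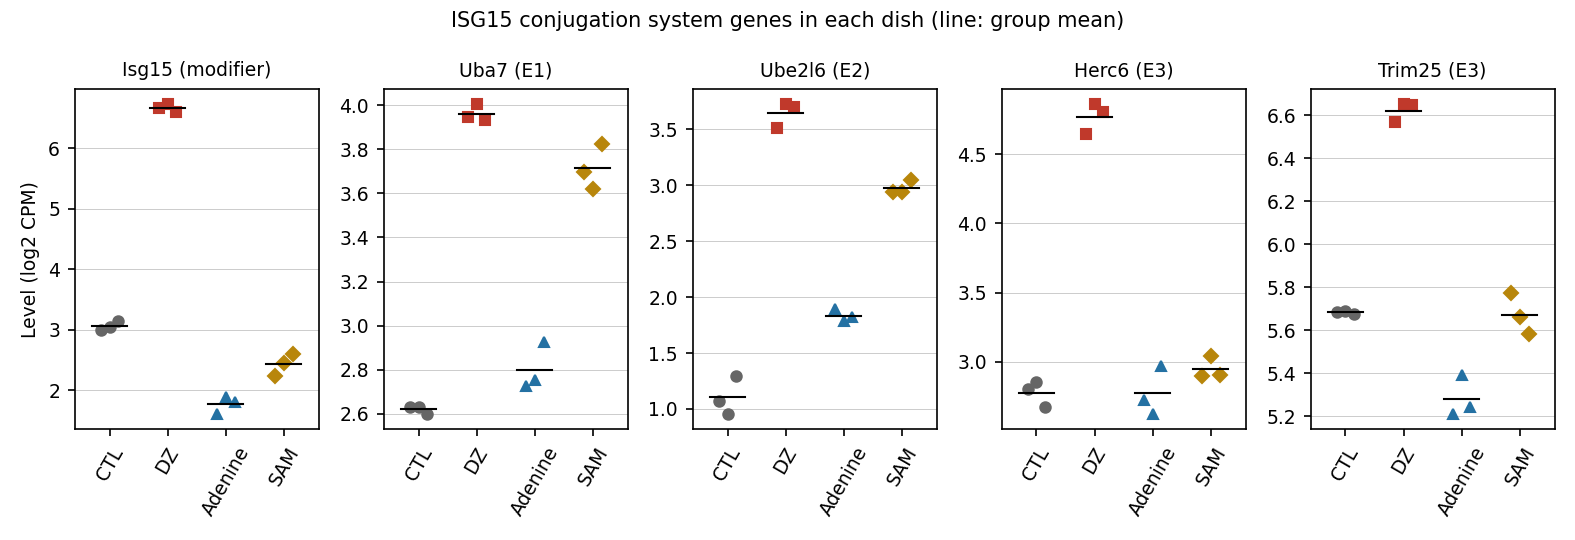
Level (log2 CPM) of the 5 genes with a row in each of the 12 dishes, 3 per group, with a line at the group mean; each panel has its own vertical axis. DZ dishes are the highest in every panel, while SAM dishes come next for Uba7 and Ube2l6 and lie below CTL for Isg15.

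The E1 and E2 genes shared an order of groups that was not that of Isg15. Uba7 (ENSMUSG00000032596, chr9:107852704-107861262, plus strand, 24 exons), the only activating enzyme known for ISG15, had log2 CPM levels of 2.63, 2.63 and 2.60 in CTL and of 3.95, 4.004 and 3.93 in DZ. Its Adenine dishes had 2.72, 2.75 and 2.92, and its SAM dishes 3.70, 3.62 and 3.82. The groups did not overlap and ran DZ, SAM, Adenine, CTL from high to low, with Adenine close to CTL.

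For Uba7 the means were 2.62 ± 0.018 in CTL, 3.96 ± 0.038 in DZ, 2.80 ± 0.11 in Adenine and 3.71 ± 0.10 in SAM (log2 CPM, SD, n = 3). The log2 difference from CTL was 1.34 (95% interval 1.18 to 1.50) in DZ, 0.18 (0.020 to 0.34) in Adenine and 1.09 (0.93 to 1.25) in SAM. The SAM level of this gene was thus 2.14-fold that of CTL, against 2.53-fold in DZ.

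Ube2l6 (ENSMUSG00000027078, chr2:84628630-84640783, plus strand, 4 exons), the conjugating enzyme that takes ISG15 from UBA7, had the lowest read numbers, 91 to 110 per library in CTL. Its log2 CPM levels were 1.07, 0.96 and 1.29 in CTL and 3.51, 3.72 and 3.70 in DZ. In Adenine they were 1.89, 1.79 and 1.82, and in SAM 2.94, 2.94 and 3.05. All 9 treated dishes lay above all 3 CTL dishes, and no groups overlapped.

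The means of Ube2l6 were 1.11 ± 0.17 in CTL, 3.64 ± 0.12 in DZ, 1.83 ± 0.054 in Adenine and 2.98 ± 0.062 in SAM (log2 CPM, SD, n = 3). It differed from CTL by 2.54 (95% interval 2.32 to 2.75) in DZ, 0.73 (0.51 to 0.94) in Adenine and 1.87 (1.66 to 2.08) in SAM, on the log2 scale. In the same Adenine and SAM libraries in which Isg15 stood below CTL, this E2 gene stood above it, 3.66-fold in SAM.

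The ligase genes differed from CTL mainly in DZ. Herc6 (ENSMUSG00000029798, chr6:57557932-57642597, plus strand, 23 exons) had log2 CPM levels of 2.80, 2.85 and 2.67 in CTL and of 4.65, 4.86 and 4.81 in DZ. The Adenine dishes had 2.72, 2.63 and 2.97 and overlapped with CTL, and the SAM dishes had 2.90, 3.04 and 2.90. SAM thus lay just above CTL without overlap, and its lowest dish was within the Adenine range.

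Means of Herc6 were 2.78 ± 0.095 in CTL, 4.77 ± 0.11 in DZ, 2.77 ± 0.18 in Adenine and 2.95 ± 0.081 in SAM (log2 CPM, SD, n = 3). The log2 difference from CTL was 2.00 (95% interval 1.80 to 2.20) in DZ, -0.0035 (-0.20 to 0.20) in Adenine and 0.17 (-0.028 to 0.37) in SAM. Both metabolite intervals include 0 and leave room for differences of up to 0.37 on that scale.

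Trim25 (ENSMUSG00000000275, chr11:88890202-88911122, plus strand, 9 exons), a ligase also known for ubiquitin chains in the RIG-I pathway, had the highest read numbers in CTL, 2271 to 2464 per library. Its log2 CPM levels were 5.68, 5.69 and 5.67 in CTL, 6.57, 6.65 and 6.65 in DZ, 5.21, 5.39 and 5.24 in Adenine, and 5.77, 5.66 and 5.58 in SAM. Adenine dishes lay below all others, and SAM dishes lay on both sides of CTL.

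The mean level of Trim25 was 5.68 ± 0.0078 in CTL, 6.62 ± 0.047 in DZ, 5.28 ± 0.097 in Adenine and 5.67 ± 0.096 in SAM (log2 CPM, SD, n = 3). Its difference from CTL was 0.94 (95% interval 0.83 to 1.05) in DZ, -0.40 (-0.51 to -0.29) in Adenine and -0.010 (-0.12 to 0.10) in SAM, on the log2 scale. The DZ difference was the smallest of the 5 genes.

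**Figure D3:**
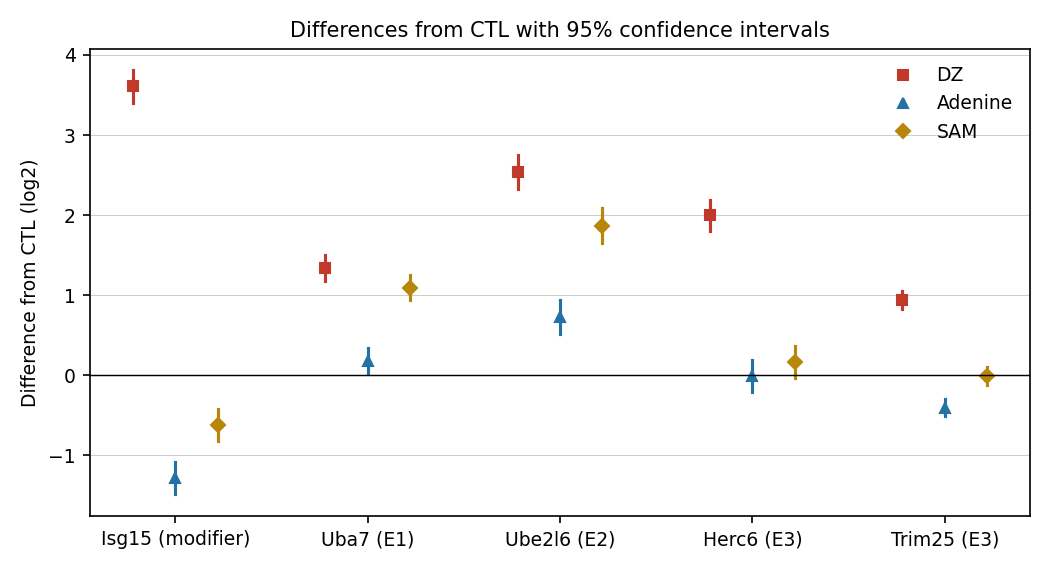
Log2 difference of each treatment from CTL for the 5 genes, with 95% confidence intervals from the limma fit of all 12 libraries. DZ lies above 0 for all 5 genes, from 0.94 (Trim25) to 3.61 (Isg15), whereas Adenine and SAM lie below 0 for Isg15 and above it for Ube2l6.

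Read across the cascade, DZ was above CTL for all 5 genes, with a median log2 difference of 2.00 beside -0.0057 over all genes. In limma at an FDR (false discovery rate) under 0.01, 5 of 5 were called higher and 0 lower, where 22.6% of all 12591 genes were called higher and 23.4% lower. Adenine gave a mixed picture: Ube2l6 was called higher, Isg15 and Trim25 lower, and Uba7 and Herc6 were not called. The background there was 30.6% of genes called higher and 31.0% lower. SAM had Uba7 and Ube2l6 called higher, Isg15 lower, and Herc6 and Trim25 not called, against 33.7% and 35.7% of all genes. Since the genes were chosen on these libraries, nothing is read from these counts, and the 3 comparisons share the CTL dishes.

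Adenine and SAM were both given at 1 mM for 24 h, so their libraries can be set against each other directly, whereas DZ was given at another dose. SAM exceeded Adenine for Isg15 by 0.66 (95% interval 0.46 to 0.86), for Uba7 by 0.91 (0.75 to 1.07), for Ube2l6 by 1.14 (0.93 to 1.36) and for Trim25 by 0.39 (0.28 to 0.50), on the log2 scale. Herc6 differed by 0.17 (-0.025 to 0.37), and its dishes overlapped between the groups. In that comparison 4 of the 5 genes were called higher and 0 lower, beside 20.8% and 22.0% of all genes, and for the same reason nothing is read from that count.

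Levels of different genes were compared per kb of the canonical transcript, which assumes that this isoform is the one expressed. In CTL, Isg15 (10.6 ± 0.58 CPM per kb) and Trim25 (9.18 ± 0.050) stood far above Uba7 (1.92 ± 0.024), Ube2l6 (1.38 ± 0.17) and Herc6 (1.18 ± 0.077), with the last 2 overlapping between dishes. In DZ, Isg15 reached 129.6 ± 5.73 CPM per kb, 27.4 times the level of Herc6 (4.72 ± 0.35), and Trim25 (17.6 ± 0.57) and Ube2l6 (7.98 ± 0.63) lay between, while Uba7 (4.87 ± 0.13) overlapped with Herc6. The modifier transcript was therefore in larger excess over its enzymes in DZ than in CTL.

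In Adenine and SAM the modifier was no longer the highest. Trim25 led in Adenine (6.96 ± 0.47 CPM per kb), followed by Isg15 (4.37 ± 0.42), Ube2l6 (2.28 ± 0.086), Uba7 (2.18 ± 0.17), which overlapped with Ube2l6, and Herc6 (1.18 ± 0.15). In SAM the order was Trim25 (9.13 ± 0.61), Isg15 (6.94 ± 0.86), Ube2l6 (5.02 ± 0.22), Uba7 (4.11 ± 0.29) and Herc6 (1.33 ± 0.076), with no overlap between neighbours.

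**Figure D4:**
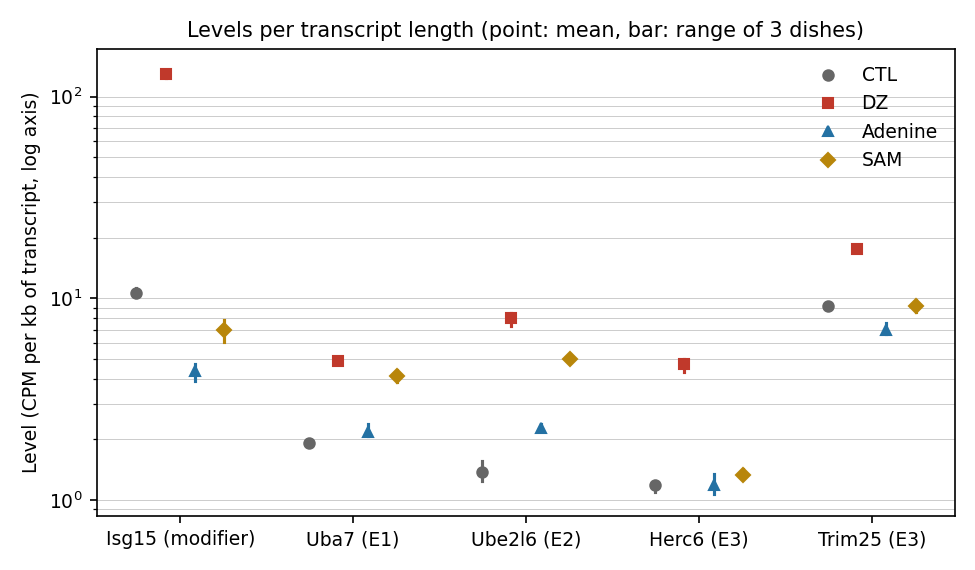
Level of the 5 genes in CPM per kb of canonical transcript on a log axis; points are means of 3 dishes and bars their range. Isg15 stands at 129.6 in DZ, far above the other genes, and below Trim25 in Adenine and SAM.

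The other interferon-stimulated genes were taken from a list of 52 names, of which 33 had a row. Mx1, Oas2, Rsad2 and Zbp1 were among the 19 without one. The authors left out genes under 1 CPM in any library, so genes that fell far in a single treatment can be missing from these counts. In DZ, 33 of 33 rose and 0 fell (limma, FDR under 0.01), with a median log2 difference of 1.72. Adenine had 3 that rose, 18 that fell and 12 not called, and a median of -0.34. SAM had 10 that rose, 7 that fell and 16 not called, and a median of 0.067. With reads scaled by plain library totals, the SAM split became 15 higher and 4 lower. Of all genes, 22.6% were called higher and 23.4% lower in DZ, 30.6% and 31.0% in Adenine, and 33.7% and 35.7% in SAM. The list was chosen with earlier results of these libraries known, as were the lists below. Its counts and adjusted p-values, and theirs, are therefore a description and not an independent test.

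Within this list, Ifit1, which encodes an RNA-binding antiviral protein, followed the directions of Isg15: it differed from CTL by 3.35 in DZ, -1.99 in Adenine and -1.46 in SAM (log2; limma with Benjamini-Hochberg adjustment, adjusted p = 1.77e-13, 3.14e-12 and 6.76e-11). Its relative Ifit3 rose by 2.50 in DZ and fell by 1.03 in Adenine, and its SAM difference of -0.12 was not called. Ifit2, another of these neighbouring genes, rose by 1.54 in DZ and by 0.49 in SAM, with 0.041 in Adenine, which was not called. Relatives such as Ifit3 and Ifit3b, or Apol9a and Apol9b, are counted as separate genes of the list. Sharing of reads between them was not tested. The immunity-related GTPase gene Irgm1 rose by 1.72 in DZ, and its SAM difference of 0.085 was not called. Its Adenine difference of -0.16 was called (adjusted p = 0.0034) but lost the call without CTL replicate 2 (limma adjusted p = 0.020) or 3 (0.018), or Adenine replicate 1 (0.011) or 3 (0.012). With plain library totals, Irgm1 lost its Adenine call (-0.10, limma adjusted p = 0.047) and was called higher in SAM (0.21, 0.00046).

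Other genes of the list lay above CTL in SAM, as Uba7 and Ube2l6 did, and those given next were picked after their values were seen. The RNA helicase gene Dhx58, the mono-ADP-ribosyltransferase gene Parp14 and the peptide transporter gene Tap1 were called higher in DZ (2.31, 1.97 and 1.40) and in SAM (1.00, 0.82 and 0.86) but not called in Adenine (-0.20, 0.056 and -0.033). Parp9, Pml and Samd9l were the 3 genes called higher in every treatment. Of these, Parp9 lost its Adenine call (0.17) without CTL replicate 1 (limma adjusted p = 0.027), Adenine replicate 1 (0.019) or Adenine replicate 3 (0.017). It also lost that call with median centring (0.12, limma adjusted p = 0.034), with quantile normalization (0.085, 0.13) and in a model of Adenine and CTL alone (adjusted p = 0.019).

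Set directly against Adenine, SAM had 24 of the 33 genes higher and 1 lower (Adar, the RNA-editing adenosine deaminase, -0.26), with 8 not called and a median log2 difference of 0.45 beside 0.00012 over all genes. This comparison was added after the members were described. Of all genes, 20.8% were called higher and 22.0% lower in it. Ifit1 (0.52), Ifit2 (0.45), Ifit3 (0.91) and Irgm1 (0.25) were among the 24 genes.

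**Figure D5:**
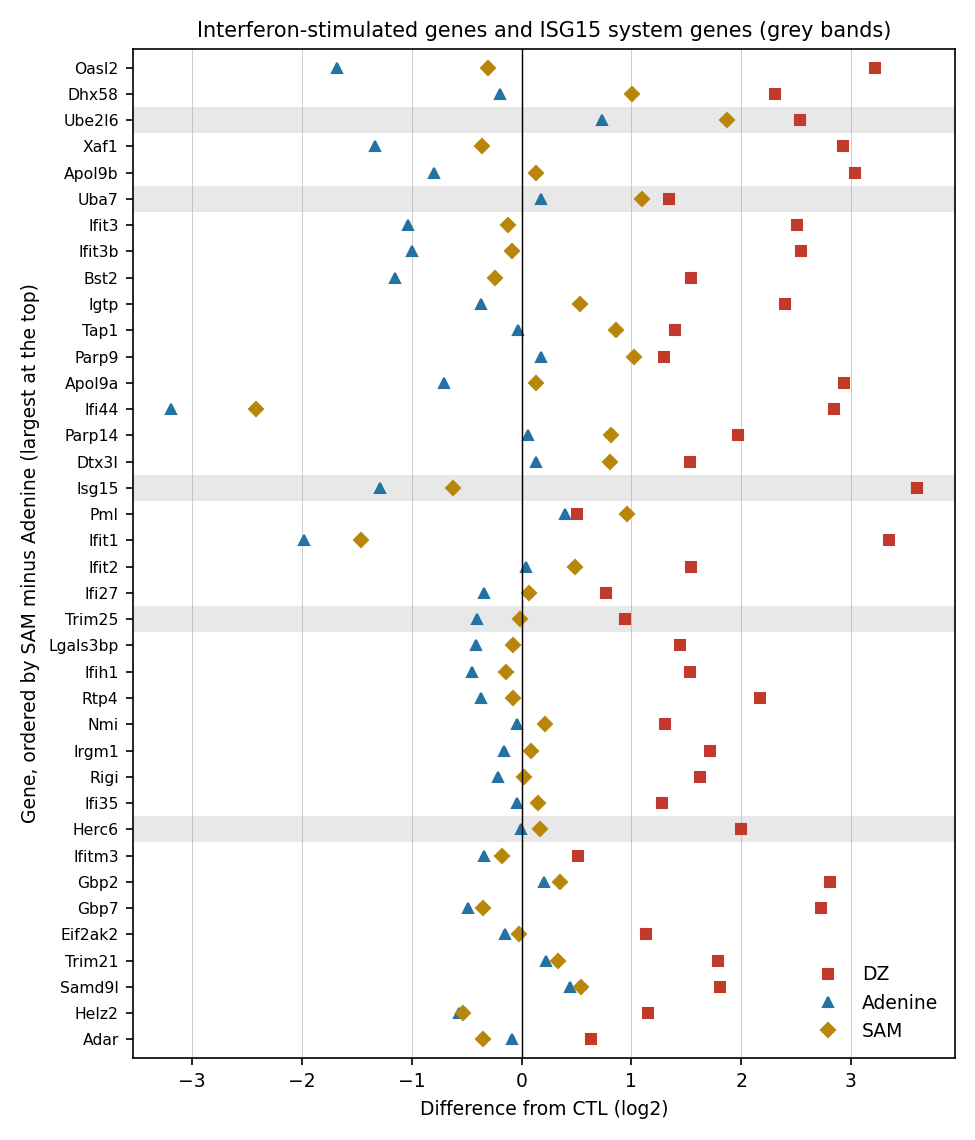
Log2 difference from CTL in DZ, Adenine and SAM for the 33 other interferon-stimulated genes and the 5 ISG15 system genes (grey bands), ordered by SAM minus Adenine with the largest at the top. DZ points are all above 0, and the Adenine and SAM points of Isg15 (-1.29 and -0.62) lie on the other side of 0 from those of Ube2l6 (0.73 and 1.87).

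For each gene of the system, the 3 genes with the most similar pattern were found by the root mean square difference over the 9 treated libraries, each less the CTL mean of the gene (log2). Nearest to Isg15 were the OAS-like gene Oasl2 (0.41), the apoptosis factor gene Xaf1 (0.44) and Apol9b (0.63). Oasl2 differed from CTL by 3.22 in DZ, -1.68 in Adenine and -0.31 in SAM. Nearest to Uba7 were Parp9 (0.090), Cubn (0.19) and Tap1 (0.21), and nearest to Ube2l6 were Apob (0.27), Tgtp1 (0.40) and Tgtp2 (0.54). Tgtp1 and Tgtp2 are near-identical copies, so reads may be split between them.

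Herc6 lay closest to Mndal (0.11), Irgm1 (0.23) and Trim12c (0.23), and Trim25 to the class I gene H2-T23 (0.14), Nlrc3 (0.15) and Ifi27 (0.16). Among the 5 genes themselves the smallest distances were 0.67, between Uba7 and Herc6 and between Herc6 and Trim25. Isg15 was 1.28 from Herc6, 1.67 from Trim25, 1.85 from Uba7 and 1.96 from Ube2l6. For each of the genes, 3 genes outside the system lay nearer than any other member. Those were the closest out of a table of 12591 genes, set against only the few other members. With pools so unequal, nothing is read from this.

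Upstream of the system, 14 of 16 interferon signalling genes had a row (Ifnb1 and Irf7 had none). In DZ 5 rose and 0 fell, in Adenine 5 rose and 4 fell, and in SAM 10 rose and 3 fell (limma, FDR under 0.01), with median log2 differences of 0.053, 0.068 and 0.26. The shares higher and lower were 35.7% and 0% in DZ, 35.7% and 28.6% in Adenine, and 71.4% and 21.4% in SAM. Over all genes they were 22.6% and 23.4%, 30.6% and 31.0%, and 33.7% and 35.7%. The transcription factor genes Stat2, Irf9, Irf1 and Irf3 were among those that rose in DZ, whereas none of the receptor genes Ifnar1, Ifnar2, Ifngr1 and Ifngr2 was called there.

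Stat2, whose protein binds the ISRE together with IRF9, rose by 1.69 in DZ (limma with Benjamini-Hochberg adjustment, adjusted p = 1.18e-12). Irf9 differed by 1.47 in DZ, -0.77 in Adenine and -0.30 in SAM, each called, which were the directions seen for Isg15. Stat2 fell by 0.25 in Adenine and rose by 0.40 in SAM. Irf1, which acts on many antigen presentation genes, rose in every treatment, by 0.54 in DZ, 0.87 in Adenine and 1.20 in SAM.

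Set directly against Adenine, SAM had 7 of the 14 signalling genes higher and 2 lower, beside 20.8% and 22.0% of all genes. Stat2 (0.65), Irf9 (0.47) and Irf1 (0.33) were among the higher ones.

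The enzymes of ubiquitin and its other relatives were counted in the same way. Of 32 names, 31 had a row (Herc3 had none), and 7 rose and 7 fell in DZ, 9 rose and 13 fell in Adenine, and 8 rose and 15 fell in SAM. The DZ shares, 22.6% in each direction, were close to those of all genes (22.6% higher and 23.4% lower). Adenine shares were 29.0% higher and 41.9% lower, beside 30.6% and 31.0% of all genes. In SAM the shares were 25.8% and 48.4%, beside 33.7% and 35.7%. Their median log2 differences were 0.0054, -0.054 and -0.11, and the DZ differences ran from -0.46 to 0.34. With plain library totals the SAM split became 12 higher and 11 lower.

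Ube2l3, the nearest relative of Ube2l6 and an E2 for ubiquitin, had a mean log2 CPM level of 7.10 in CTL and differed by 0.21 in DZ, -0.21 in Adenine and -0.18 in SAM, each called in limma. Its SAM call was lost with plain library totals (-0.057). Sae1, a subunit of the SUMO-activating enzyme, rose by 0.33, 0.44 and 0.49 in DZ, Adenine and SAM, and Ube2n, an E2 for ubiquitin chains, by 0.31, 0.58 and 0.61. Ube2m, the E2 of NEDD8, differed by -0.17, -0.42 and -0.59, each called lower. The protease gene Usp21 rose by 0.47 in Adenine and 0.62 in SAM, and its DZ difference of 0.088 was not called.

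Among the genes of other ubiquitin-like modifiers, 13 of 14 had a row (Ubd had none). In DZ 3 rose and 4 fell, in Adenine 5 rose and 5 fell, and in SAM 5 rose and 6 fell, with medians of -0.11, -0.0027 and 0.11. As shares, 23.1% rose and 30.8% fell in DZ, 38.5% and 38.5% in Adenine, and 38.5% and 46.2% in SAM. All genes had 22.6% and 23.4%, 30.6% and 31.0%, and 33.7% and 35.7%. Fau, which encodes a ubiquitin-like protein fused to a ribosomal protein, fell in every treatment, with differences of -0.48, -0.76 and -0.59. Sumo3 rose in every treatment (0.17, 0.30 and 0.58), and Sumo2 rose in Adenine (0.25) and SAM (0.42). No modifier gene of this list moved up in DZ by more than 0.40.

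Proteins described as carrying ISG15 were covered by 15 names, all with a row, of which 3 are also in the signalling list, 3 among the interferon-stimulated genes and 2 among the enzymes. In DZ 6 rose and 5 fell, in Adenine 3 rose and 8 fell, and in SAM 4 rose and 5 fell, with medians of 0.066, -0.14 and -0.024. These are shares of 40.0% and 33.3% in DZ, 20.0% and 53.3% in Adenine, and 26.7% and 33.3% in SAM. The shares of all genes were 22.6% and 23.4%, 30.6% and 31.0%, and 33.7% and 35.7%. The counts in SAM became 6 higher and 4 lower with plain library totals, and in Adenine 3 higher and 4 lower.

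Rigi, the RNA sensor, rose by 1.62 in DZ, fell by 0.22 in Adenine and was not called in SAM (0.023). With plain library totals its SAM difference was called higher (0.14, limma adjusted p = 0.0065). Pcna, the DNA polymerase clamp, had a DZ difference of 0.066, not called, and rose by 0.93 in Adenine and 1.23 in SAM. Rigi is one of the genes that also stand in the interferon-stimulated list.

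Annotated genes overlap several of the loci. A non-coding gene lies on the opposite strand at Isg15 (Gm46878), Inka1, which has its own row, lies opposite Uba7, and Gm20661 shares the strand of Uba7 without a row. Among further overlaps, Ube2l6 has the protein-coding Smtnl1 on the opposite strand and the non-coding Gm57447 on its own. Herc6 has the non-coding Gm45193 on its own strand and Gm66279 on the opposite one. None of these further genes has a row. The library kit kept strand, and the strand setting of the counting was not given in the sources used here, so the part of such overlaps in the levels was not tested.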

How the data were processed

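Poly(A) RNA of 12 libraries was sequenced with a stranded kit. Per the labels and the methods, the authors trimmed reads with Trimmomatic, aligned them to GRCm39 with HISAT2 and estimated reads per GENCODE vM27 gene with StringTie. The authors then left out genes under 1 CPM in any sample and normalised with edgeR. Tool versions were not given in the sources used here. The deposited values are in log2 CPM, with a prior count of 2. Its lowest value is -0.0029, that is 0.998 CPM. The reads behind the values were recovered by a search for each library size: 100.0% of the values gave whole reads within 0.05. They are StringTie estimates.

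The deposited log2 values were analysed with limma 3.58.1 in R 4.3.3 (1 model of 4 groups, variance trend), since they are not counts, and tables were made with Python 3.11.15. P-values were adjusted by Benjamini-Hochberg over 12591 genes, with calls at an FDR under 0.01. The model was tried before use on simulated reads in which few genes changed. Far more genes were called in these data, so that trial does not cover their setting. The members and gene lists were chosen with earlier results of these data known. Named were all members, up to 4 genes per list with the smallest adjusted p in any comparison with CTL, the 3 genes nearest each member, and Ube2l3 and Herc3 as relatives. Dhx58, Parp14, Tap1, Pml, Samd9l, Adar, Ifit3b, Apol9a, Irf3, Fn1 and the interferon receptor genes were also named, after their values were seen. Some genes that this rule names are not reported here, although the list counts include them. Alternatives were other scalings, filters, thresholds, a pseudocount, voom on the recovered reads, a replicate block and leaving out each library. Same-numbered dishes did not deviate together (Pearson r of deviations with CTL between -0.045 and 0.181), so numbers were not used to pair them. Promoters came from GRCm39 with GENCODE vM39; 12575 of 12591 gene IDs matched. No protein sequences were used here.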

Additional observations from a re-analysis of the deposited data

How the results depend on the processing

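No member changed direction where it was called, and 3 members stayed called in Adenine and in SAM, and 5 in DZ, under every alternative that kept all 5 genes, except that an FDR under 0.05 added Uba7 in Adenine (4 called). A filter on log2 values of at least 1 in every library removed Ube2l6 and moved the median difference of the members to 1.67 in DZ, -0.20 in Adenine and 0.080 in SAM. A pseudocount of 1 CPM gave a median of 1.85 in DZ. The SAM median was 0.057 with quantile normalization and 0.29 with plain read totals, a scaling that also shifted the SAM median of all genes from -0.015 to 0.11. Leaving out 1 library gave medians of 1.94 to 2.06 in DZ, -0.10 to 0.070 in Adenine and 0.12 to 0.21 in SAM. At an FDR under 0.05, 11 other ubiquitin-like modifiers were called in DZ (7 at 0.01), and with plain read totals 7 ISG15 carriers were called in Adenine (11 otherwise). These were the only 2 of 168 counts of listed genes under such settings to move by more than 1.5 times. With the replicate block, the members called were 5, 3 and 3 in DZ, Adenine and SAM, the same numbers as without pairing, and 25 other interferon-stimulated genes were called in SAM against Adenine. Outlying dishes could not be judged with 3 per group. Depth limits Ube2l6 most, with 91 reads in its lowest library.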
